A study of Bos taurus with 15 samples.

Results

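Transcripts of the solute carriers, the large group of membrane transporters whose gene names begin with SLC, were followed in the caruncular endometrium of cows across the estrous cycle and early pregnancy. A probe was taken when its gene name began with SLC and a number or with SLCO, or when its annotation contained the words solute carrier, and 141 of the 15208 probes other than controls met this rule. Of these, 123 probes for 118 of the 134 gene names were marked by the scanner software as well above background in 3 or more of the 15 arrays and are described here, and 18 were not. The cows were Japanese Black cows that had been inseminated artificially, with the day of insemination counted as day 1, and the caruncular tissue came from the uterine horn on the side of the corpus luteum. Non-pregnant cows of day 15 (NP15, n = 4) and day 18 (NP18, n = 4) were compared with pregnant cows of day 15 (P15, n = 3) and day 18 (P18, n = 4), where pregnancy was judged by whether trophoblast was seen in the opened horn. Each cow gave 1 array, and no treatment or genetic change was applied to any group.

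Solute carriers move sugars, amino acids, peptides, lactate, ions, metals, nucleotides and vitamins across cell and organelle membranes, either down a gradient or coupled to sodium, protons or another solute. In ruminants the conceptus floats free in the uterine lumen before it attaches, and it depends on glucose, amino acids and other nutrients that the endometrial epithelium transports into the lumen. Many amino acid carriers work as a pair of a light subunit, which transports, and a heavy subunit, which brings it to the membrane.

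The array reads each transcript through an oligonucleotide of 60 bases. The probes printed next are for carriers described at length, several of which moved in more than 1 comparison, and they are printed 5′ to 3′ as the scanner files give them, in lower case with no base singled out.
SLC7A9: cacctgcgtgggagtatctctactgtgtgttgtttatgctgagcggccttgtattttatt
SLC2A1: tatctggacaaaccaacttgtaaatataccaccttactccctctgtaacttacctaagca
SLC16A1: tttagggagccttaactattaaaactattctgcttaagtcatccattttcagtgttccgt
SLC31A2: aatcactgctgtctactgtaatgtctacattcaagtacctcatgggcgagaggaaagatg
SLC25A30: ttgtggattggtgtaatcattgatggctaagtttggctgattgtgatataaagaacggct
SLC7A11: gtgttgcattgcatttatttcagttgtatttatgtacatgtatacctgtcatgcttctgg
SLC5A11: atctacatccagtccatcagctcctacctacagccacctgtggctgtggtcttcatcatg

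No genome build was named for the array design, so the probes are placed by gene name only. Their share of G and C ran from 35% for SLC16A1 and SLC7A11 to 51.7% for SLC5A11. Among all pairs of member probes for different genes, the longest run of bases in common was 14, between the probes for SLC24A1 and SLC12A2. The closely related ADP/ATP carriers SLC25A4, SLC25A5 and SLC25A6 shared runs of at most 7 bases.

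Signals are given below as a multiple of the median probe of the same array, so that a value of 1 is the array median, and differences between groups are given on the log2 scale with the standard error of the fit. The lowest signal that was well above background lay at 0.0196 to 0.0519 array medians on day 15, at 0.0660 to 0.0950 in NP18 and at 0.102 to 0.180 in P18, so a weak transcript had to be stronger to be seen on day 18. Each of the 123 member probes exceeded background clearly in 1 or more arrays of NP15 and of P15, whereas 12 were in no NP18 array and 19 in no P18 array. Epithelial markers were present in every array, with EPCAM at 41.5 to 164 array medians and KRT8 at 21.3 to 110, and so were the stromal markers VIM, DCN and COL3A1. Of the trophoblast list, 9 of 11 genes had a probe. Their summed signal was 0.227 to 0.296 in NP15, 0.292 to 0.505 in P15, 0.419 to 1.60 in NP18, and 0.700, 130, 77.0 and 575 in P18 replicates 1 to 4. In the P18 arrays, 1, 6, 7 and 7 of the 7 TKDP and PAG probes, which mark the trophoblast, were well above background, in the order of the replicates, and in NP18 none were. P18 replicate 1 was therefore almost free of this signal and replicates 2, 3 and 4 were not. Smooth muscle markers moved the other way, with a summed signal of 35.4 to 166 in NP18 and 9.36 to 34.4 in P18, and 2 of the 3 tested (ACTA2 and CNN1) were called lower in P18. Of the 6 stromal and 4 endothelial markers, COL1A1 (-1.97, adjusted p = 0.00759) and PECAM1 (-1.54, adjusted p = 0.0148) were also called lower in P18 than in NP18, and of the 8 trophoblast markers tested 6 were called higher and ELF5 lower. None of the 6 epithelial markers was called between P18 and NP18. Between P18 and P15, EPCAM was called higher and CDH1 lower, 3 of 6 stromal, 3 of 3 smooth muscle and 1 of 4 endothelial markers were called lower, and 6 of 8 trophoblast markers were called higher. Between NP18 and NP15, VIM and ELF5 were called higher. The part of these shifts in the results was not tested. The P15, NP18 and P18 arrays were each scanned on 1 day of their own and the NP15 arrays on 3 days, so scan day and group cannot be told apart. In whole tissue, fewer cells of a type and less RNA per cell cannot be told apart either.

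A probe was called when its Benjamini-Hochberg adjusted p over all 13164 probes tested was below 0.05 in limma and its fold change was over 2. On day 15, none of the 123 solute carrier probes was called between pregnant and non-pregnant cows, where 0.798% of all probes tested were (0.349% higher and 0.448% lower). On day 18, 10 were called (9 higher and 1 lower in pregnant cows), or 8.13%, where 5.75% of all probes were (3.65% higher and 2.1% lower). Without NP18 replicate 1 the members called on day 18 were 7 higher and 7 lower. The share of all probes without that array is not given, so nothing particular to the members is read from these counts. Between NP18 and NP15, 16 were called (6 higher and 10 lower on day 18), or 13.0%, where 7.16% of all probes were (2.89% higher and 4.26% lower). Between P18 and P15, 17 were called (12 higher and 5 lower on day 18), or 13.8%, where 11.9% of all probes were (7.58% higher and 4.31% lower). The median log2 difference of the members was -0.04, 0.23, -0.04 and 0.22 in these comparisons in turn, and that of all probes was -0.06, 0.07, 0.02 and 0.12. The shares of solute carriers called on day 18 and between P18 and P15 lay near those of all probes, and nothing particular to solute carriers is read from them. When scan day entered the limma fit as a random block, 1 member was called between P18 and NP18 and none in the other comparisons (at an unadjusted p under 0.05, 25 members and 1732 of all 13164 probes between NP18 and NP15, and 18 members and 1726 probes between P18 and P15). Neighboring comparisons share a group (NP18 or P18, for example), so they are not independent of each other.

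**Figure D1:**
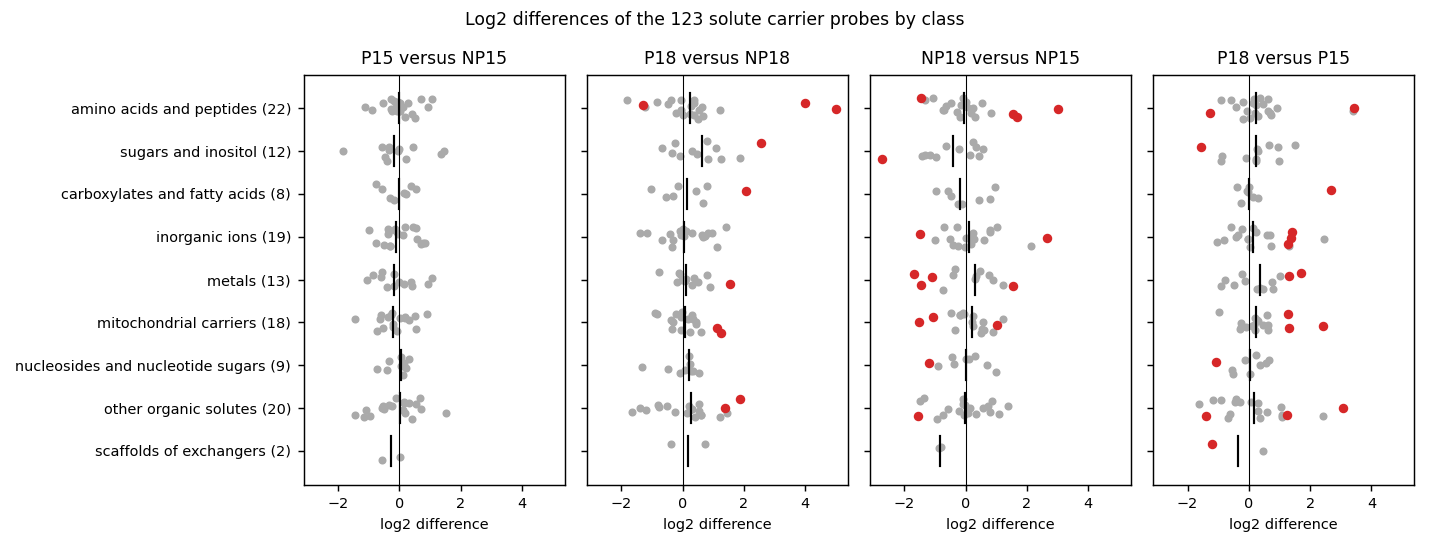
Log2 differences of the 123 solute carrier probes in each comparison (x axis), by class of transported solute (y axis, number of probes in parentheses). Each point is a probe, red points were called, and the black bar is the median of the class. The called probes of P18 versus NP18 lie to the right of 0 except for 1, and none is called in P15 versus NP15.

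On day 18 of pregnancy, the probes called higher belonged to carriers of glucose, lactate, cystine, peptides, copper, taurine and organic anions and to carriers of the inner mitochondrial membrane. By class, 2 of 22 amino acid and peptide probes were called higher and 1 lower, as were 1 of 12 sugar and inositol probes, 1 of 8 carboxylate and fatty acid probes, 1 of 13 metal probes, 2 of 18 mitochondrial probes and 2 of 20 probes of other organic solutes, all higher. Of all probes tested, 3.65% were called higher and 2.1% lower. Groups did not overlap in 23 members, or 18.7%, where 16.3% of all probes did not. None of the 19 inorganic ion probes or the 9 nucleoside and nucleotide sugar probes was called. Both probes of the ion carrier SLC12A2 were higher in every P18 array than in any NP18 array but missed the threshold. They differed by 1.13 (limma adjusted p = 0.0564) and 1.41 (limma adjusted p = 0.0762). Of the 19 ion probes, 11 had a log2 difference above 0. The sugar class had the highest median log2 difference, 0.64, and the ion class the lowest of the 8 carrier classes, 0.04.

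SLC2A1 encodes the facilitative glucose transporter of many epithelia. Its signal was 17.9, 47.4, 42.3 and 9.73 array medians in the NP18 arrays and 141, 147, 139 and 144 in the P18 arrays. The P18 values lay close together and above every NP18 value. The difference was 2.55 ± 0.47 on the log2 scale (SE, 5.87-fold, limma adjusted p = 0.00586, exact permutation p = 0.0286, two-sided, which is the smallest p that 4 against 4 arrays allow). On day 15 the signal was 126, 32.3, 52.4 and 87.5 in NP15 and 47.7, 41.9 and 62.9 in P15, and these groups overlapped. For SLC2A1, neither P18 against P15 (1.51) nor NP18 against NP15 (-1.44) was called. The other sugar carriers of the listed set did not pass the test on day 18. SLC2A4, the insulin-responsive glucose transporter, differed by 0.84 ± 0.44 (adjusted p = 0.259), and SLC5A1, the sodium-coupled glucose transporter, by 1.11 ± 0.54 (adjusted p = 0.229), with SLC5A1 at 0.0799 to 0.310 in NP18 and 0.258 to 0.402 in P18.

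SLC16A1, a proton-coupled carrier of lactate and pyruvate, was at 0.422, 1.41, 1.51 and 1.34 array medians in NP18 and at 3.53, 3.89, 6.06 and 4.60 in P18. Every P18 array was above every NP18 array, and NP18 replicate 1 was far below the other NP18 arrays. The log2 difference was 2.08 ± 0.44 (4.22-fold, limma adjusted p = 0.0131, exact permutation p = 0.0286). The other 7 probes of the carboxylate and fatty acid class were not called, and the fatty acid transport proteins SLC27A1 and SLC27A4 differed by 0.67 ± 0.25 (adjusted p = 0.118) and -0.13 ± 0.39 (adjusted p = 0.870).

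SLC7A9 encodes the light subunit of the exchanger for cystine and basic amino acids. It was not well above background in any NP18 array, with values of 0.0166, 0.0193, 0.0182 and 0.0134, and was well above background in all P18 arrays, at 0.433, 0.852, 0.619 and 0.376. P18 was at least 6.58-fold higher than NP18, a bound set by the lowest signal that was well above background in each NP18 array (limma adjusted p = 0.000144, exact permutation p = 0.0286). It was the only member whose call on day 18 also held with scan day as a random block (adjusted p = 0.0473). The NP18 and P18 arrays were each scanned on a day of their own, so that fit cannot separate scan day from group. The heavy subunit of SLC7A9, SLC3A1, was at 2.86 to 4.22 array medians in NP18 and 3.47 to 5.30 in P18. Its log2 difference of 0.38 ± 0.26 did not pass the test (adjusted p = 0.395).

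SLC15A1, a proton-coupled carrier of dipeptides and tripeptides, varied widely within groups. Its signal was 0.168, 3.67, 1.27 and 0.423 in NP18 and 9.0, 3.17, 23.8 and 31.3 in P18. P18 replicate 2 was below NP18 replicate 2, so the groups overlapped. The probe was called, with a log2 difference of 3.99 ± 1.09 (limma adjusted p = 0.0411, exact permutation p = 0.0571), and the call was lost when any of 6 of the 8 arrays was left out (differences from 3.27 to 4.75, adjusted p up to 0.120). SLC6A9, the glycine transporter that also clears glycine at synapses, was the member called lower. It was at 2.90, 3.37, 5.03 and 3.54 in NP18 and at 2.18, 1.21, 1.21 and 1.45 in P18, without overlap. The difference was -1.31 ± 0.35 (limma adjusted p = 0.0384, exact permutation p = 0.0286), and leaving out any of 6 of the 8 arrays ended the call (adjusted p up to 0.114).

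SLC31A2, a copper transporter of endosomes and lysosomes, was at 13.4, 12.6, 8.64 and 7.20 in NP18 and at 25.2, 32.0, 34.2 and 28.7 in P18. The groups were well apart, with a log2 difference of 1.56 ± 0.26 (2.94-fold, limma adjusted p = 0.00274, exact permutation p = 0.0286). SLCO4C1, an organic anion transporter, was at 0.492, 0.229, 0.181 and 0.138 in NP18 and at 0.543, 0.752, 1.10 and 1.17 in P18. The lowest P18 array was only a little above the highest NP18 array, and the difference was 1.89 ± 0.49 (limma adjusted p = 0.0326, exact permutation p = 0.0286). Leaving out any of 6 of the 8 arrays ended that call, with adjusted p up to 0.0982. SLC6A6, the taurine transporter, was at 0.0622, 0.0819, 0.0922 and 0.209 in NP18, where 2 of 4 arrays were well above background, and at 0.347, 0.189, 0.207 and 0.337 in P18. These groups overlapped, the difference was 1.39 ± 0.36 (limma adjusted p = 0.0323, exact permutation p = 0.0857), and leaving out any of 6 of the 8 arrays ended the call (adjusted p up to 0.0837). The SLC6A6 call was also lost with normexp background correction. The prostaglandin transporter SLCO2A1 differed by -0.79 ± 0.58 (adjusted p = 0.431).

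SLC25A30 and SLC25A5 belong to the carriers of the inner mitochondrial membrane, and SLC25A5 exchanges ADP for ATP. SLC25A30 was at 7.03, 8.49, 7.05 and 7.06 in NP18 and at 17.5, 18.6, 21.1 and 14.2 in P18. SLC25A5 was at 23.0, 43.8, 38.5 and 45.9 in NP18 and at 58.8, 69.8, 108 and 94.3 in P18. Neither gene's groups overlapped. The difference was 1.26 ± 0.24 for SLC25A30 (2.39-fold, limma adjusted p = 0.00630, exact permutation p = 0.0286) and 1.14 ± 0.32 for SLC25A5 (2.20-fold, limma adjusted p = 0.0461, exact permutation p = 0.0286). The call of SLC25A5 was lost when any of 7 of the 8 arrays was left out (adjusted p up to 0.138) and with 75th percentile or quantile scaling.

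The calls of SLC7A9, SLC2A1, SLC16A1, SLC31A2 and SLC25A30 on day 18 remained when any 1 of the 8 arrays was left out. P18 replicate 1, the array with little trophoblast signal, took part in each of the 10 calls, so its position is no separate test of them. Where the groups did not overlap, it lay beyond every NP18 array by definition. For SLC15A1 and SLC6A6, whose groups overlapped, it was also above every NP18 array. Its own log2 difference from the NP18 mean was 2.54 for SLC2A1, 1.75 for SLC16A1, 1.31 for SLC31A2, 1.24 for SLC25A30, 0.69 for SLC25A5 and -0.74 for SLC6A9. With replicate 1 as the only P18 array, limma called none of the 123 probes (9 at an unadjusted p under 0.05), and SLC7A9 came nearest to the threshold among these 10 (adjusted p = 0.0813).

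**Figure D2:**
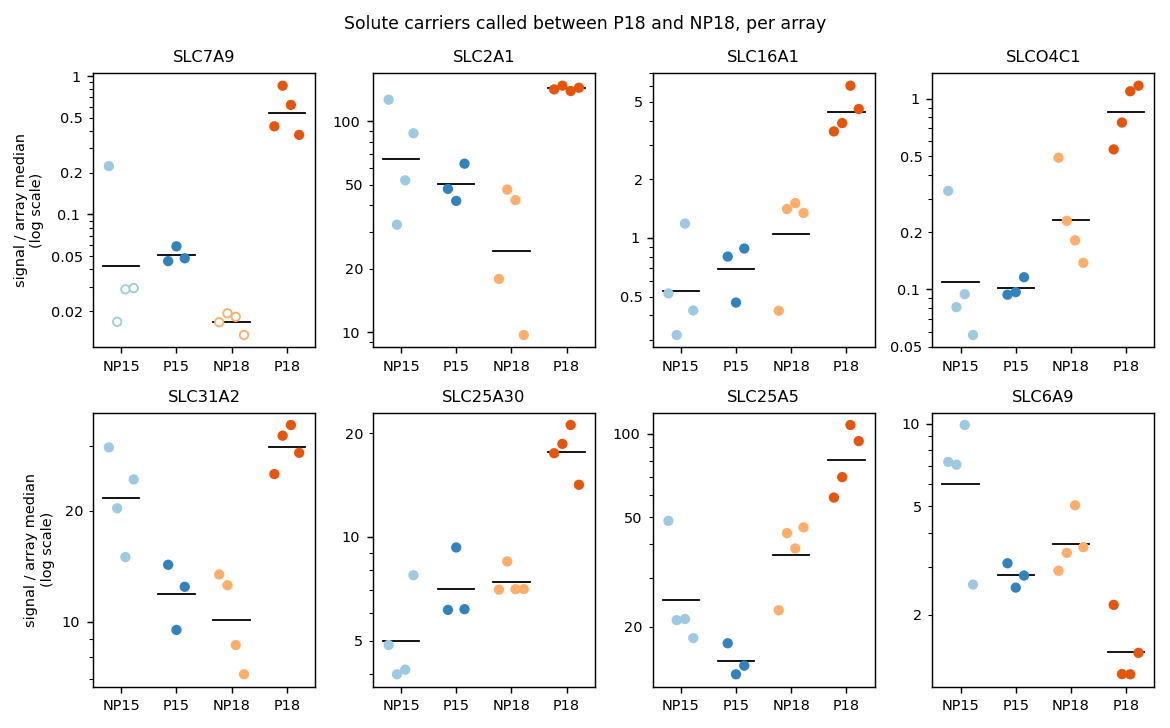
Signal of each array as a multiple of the array median (y axis, log scale) for the 8 solute carriers called between P18 and NP18 without overlap of the groups, ordered by the log2 difference. Points are arrays, open points were not well above background, and bars are the mean of the log2 values of each group. In SLC2A1 the 4 P18 arrays lie between 139 and 147, and in SLC7A9 all NP18 points are open.

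On day 15, pregnancy was accompanied by no called difference, and the log2 differences of the 123 probes ran from -1.85 to 1.51. At an unadjusted p under 0.05, limma had 16 of the 123 members and 1956 of all probes, and the methods' t-test with its fold limit and no adjustment had 6 members and 433 of all probes, and with Benjamini-Hochberg adjustment none of either. In 16 members, or 13.0%, every array of one group lay beyond every array of the other, where 15.6% of all probes did. SLC25A29, a mitochondrial carrier of basic amino acids, came nearest to the threshold. It was at 42.5, 44.8, 48.2 and 23.9 in NP15 and at 15.5, 14.7 and 12.7 in P15. The difference of -1.44 ± 0.32 had an adjusted p of 0.0506 (exact permutation p = 0.0571), and with the tested probes limited to those well above background in all 15 arrays it was the 1 member called. Leaving out NP15 replicate 3 or 4 in turn gave 3 and 2 called members on day 15. SLC5A3, a sodium-coupled inositol transporter, was at 0.175, 0.247, 0.257 and 0.338 in NP15 and at 0.626, 0.716 and 0.700 in P15, with a difference of 1.46 ± 0.36 (adjusted p = 0.0812, exact permutation p = 0.0286, the smallest p that 3 against 4 arrays allow). SLC2A4 was at 0.645, 0.974, 1.27 and 1.19 in NP15 and at 2.66, 2.34 and 2.64 in P15. Its groups did not overlap either, but the difference of 1.37 ± 0.47 did not pass the test (adjusted p = 0.200).

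The effect of pregnancy was then compared between the days, as P18 minus NP18 against P15 minus NP15. This interaction was called for 7 of the 123 probes, or 5.69%, of which 6 were higher and 1 lower on day 18, where 2.72% of all probes were called (2.07% higher and 0.653% lower). SLC31A2 differed by -0.86 ± 0.28 on day 15 and 1.56 ± 0.26 on day 18, and the difference between the days was 2.42 ± 0.38 (limma adjusted p = 0.00949). That call held when any 1 of the 15 arrays was left out. SLC2A1 differed by -0.39 ± 0.51 and 2.55 ± 0.47 on the 2 days, with a difference between the days of 2.95 ± 0.70 (adjusted p = 0.0377). SLC25A5 differed by -0.74 ± 0.35 and 1.14 ± 0.32, and SLC5A3 by 1.46 ± 0.36 and -0.67 ± 0.34, with differences between the days of 1.88 ± 0.47 (adjusted p = 0.0485) and -2.13 ± 0.49 (adjusted p = 0.0355). The calls of SLC2A1, SLC25A5 and SLC5A3 were lost when any of 10, 12 and 9 of the 15 arrays, respectively, was left out (adjusted p up to 0.106, 0.114 and 0.0954).

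For the other 3 probes, 1 or more groups lay at background, so the size of the interaction is not a measured fold. SLC7A9 was called (adjusted p = 0.0142) and lost its call without P15 replicate 1 (adjusted p = 0.0534) and with scan day as a random block (adjusted p = 0.526). On day 15 it was at 0.223, 0.0167, 0.0287 and 0.0293 in NP15, where replicate 1 alone was well above background, and at 0.0460, 0.0588 and 0.0482 in P15. SLC5A11, an inositol transporter related to SLC5A3, was at 0.246, 0.478, 0.0986 and 0.465 in NP15, at 0.0584, 0.0766 and 0.0942 in P15, at 0.0169 to 0.0792 in NP18 with no array well above background, and at 0.160, 0.145, 0.0654 and 0.332 in P18. Every P15 array was below every NP15 array, and on day 18 only P18 replicate 3 fell among the NP18 arrays, but the difference passed the test on neither day (adjusted p = 0.192 and 0.0649). SLC39A4, a zinc importer, was well above background in no array of day 18. The interactions of SLC5A11 (adjusted p = 0.0333) and SLC39A4 (adjusted p = 0.0420) were each lost when any of 10 of the 15 arrays was left out.

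**Figure D3:**
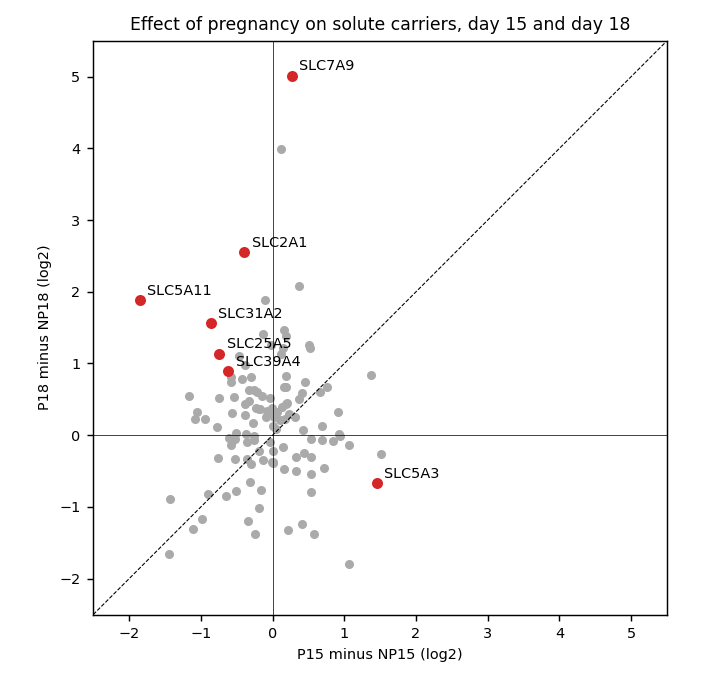
Log2 difference between pregnant and non-pregnant cows on day 15 (x axis) and day 18 (y axis) for the 123 solute carrier probes. The dashed line marks equal differences, and the 7 red, named points were called for a difference between the days. SLC5A3 is the red point below the line, at 1.46 on day 15 and -0.67 on day 18.

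Within non-pregnant cows, 3 of the 6 probes called higher on day 18 than on day 15 were for amino acid carriers, and those called lower included 3 metal carriers, an inositol, a vitamin and a nucleotide sugar carrier. Of all probes tested, 2.89% were called higher and 4.26% lower. Groups did not overlap in 20 members, or 16.3%, where 13.1% of all probes did not. With NP18 and NP15 fitted alone, 1 member was called, and none of the 9 called carriers without overlap of the groups passed the test (adjusted p from 0.0538 to 0.146). SLC7A11, the light subunit of the exchanger that takes up cystine for glutamate, was at 0.109, 0.115, 0.172 and 0.230 in NP15 and at 1.03, 0.493, 0.577 and 7.05 in NP18. Every NP18 array was higher, and replicate 4 was far above the others. The log2 difference was 3.0 ± 0.64 (limma adjusted p = 0.0112, exact permutation p = 0.0286) and 2.15 without that array (adjusted p = 0.00593). SLC39A14, an importer of zinc and iron, was at 0.533 to 1.28 in NP15 and at 1.31, 1.34, 2.09 and 6.44 in NP18, again highest in replicate 4. The difference of 1.56 ± 0.47 (limma adjusted p = 0.0464, exact permutation p = 0.0286) was 1.04 without that array (adjusted p = 0.109), and leaving out 5 of the 8 arrays in turn ended the call.

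Other amino acid and ion carriers were called higher in NP18 with overlapping groups. Results with single arrays left out are not given for these calls or for that of SLC25A3. SLC7A5, a light subunit for large neutral amino acids, was at 6.06, 5.17, 18.6 and 14.6 in NP15 and at 25.9, 16.2, 24.8 and 59.5 in NP18, with a difference of 1.55 ± 0.45 (adjusted p = 0.0418, exact permutation p = 0.0571). SLC1A5, a glutamine carrier, was at 1.41 to 3.72 in NP15 and at 2.82, 11.4, 12.5 and 9.25 in NP18 (1.67 ± 0.45, adjusted p = 0.0300), and SLC4A4, a sodium bicarbonate cotransporter, was at 0.159 to 0.435 and at 0.424, 1.49, 1.01 and 5.31 (2.64 ± 0.58, adjusted p = 0.0128). The mitochondrial phosphate carrier SLC25A3 was named after its values were seen and differed by 1.01 ± 0.27 (adjusted p = 0.0297). SLC3A2, the heavy subunit with which SLC7A5 and SLC7A11 pair, was at 11.1 to 16.9 in NP15 and at 11.2 to 16.3 in NP18 and differed by -0.05 ± 0.21 (adjusted p = 0.910).

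Of the members called lower in NP18, SLC25A29 was at 23.9 to 48.2 in NP15 and at 9.53, 13.7, 20.8 and 11.6 in NP18, a difference of -1.53 ± 0.30 (limma adjusted p = 0.00745, exact permutation p = 0.0286). SLC31A2 was at 29.7, 20.3, 15.0 and 24.3 in NP15, above the NP18 values given earlier, a difference of -1.10 ± 0.26 (limma adjusted p = 0.0181, exact permutation p = 0.0286). The zinc transporter of vesicles SLC30A3 was at 0.588, 0.361, 0.267 and 1.31 in NP15 and at 0.257, 0.182, 0.155 and 0.0930 in NP18 (-1.69 ± 0.44, limma adjusted p = 0.0256, exact permutation p = 0.0286). None of these groups overlapped. SLC5A6, which takes up biotin and pantothenate, and SLC35C1, which carries GDP-fucose into the Golgi, differed by -1.55 ± 0.36 (adjusted p = 0.0173) and -1.19 ± 0.28 (adjusted p = 0.0181), again without overlap. The calls of SLC25A29 and SLC5A6 held when any array was left out. The call of SLC30A3 was lost without NP18 replicate 2, 3 or 4 (adjusted p up to 0.0765), that of SLC31A2 without NP15 replicate 1 or NP18 replicate 4 (adjusted p up to 0.0511) and that of SLC35C1 without NP18 replicate 2 (adjusted p = 0.0535). With normexp background correction the SLC35C1 call was lost as well.

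SLC5A11 and SLC43A3 were well above background in all 4 NP15 arrays and in no NP18 array. NP15 was at least 3.29-fold higher for SLC5A11 (limma adjusted p = 0.0106) and at least 1.16-fold higher for SLC43A3 (limma adjusted p = 0.00625), with an exact permutation p of 0.0286 for each, and normexp background correction brought the SLC43A3 difference under 2-fold (-0.84). The iron exporter SLC40A1 was at 8.89, 1.47, 1.97 and 2.95 in NP15 and at 1.16, 1.5, 1.02 and 0.766 in NP18, so that the groups overlapped, with a difference of -1.45 ± 0.42 (adjusted p = 0.0414). No result with an array left out is given for that call.

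**Figure D4:**
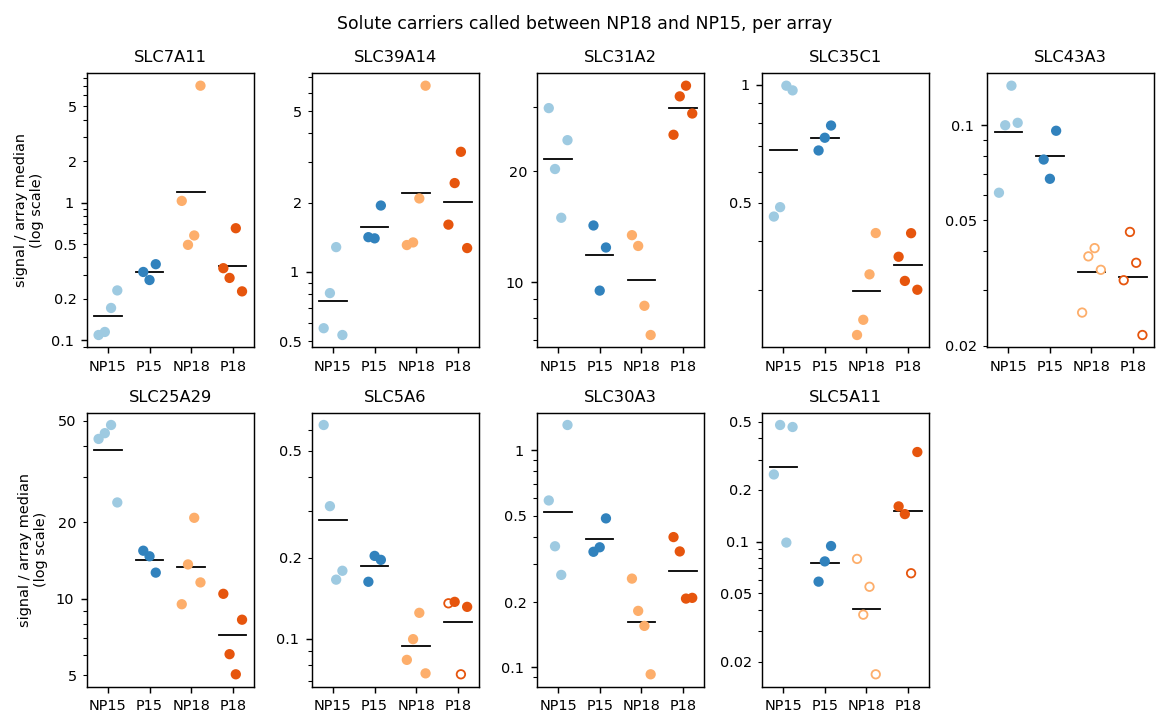
Signal of each array as a multiple of the array median (y axis, log scale) for the 9 solute carriers called between NP18 and NP15 without overlap of the groups. Points, open points and bars are as in the plot of P18 and NP18. NP18 replicate 4 is the highest NP18 point of SLC7A11 (7.05) and of SLC39A14 (6.44).

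Within pregnant cows, 3 of 19 inorganic ion, 3 of 18 mitochondrial and 2 of 13 metal probes were called higher in P18 than in P15. So were 2 of 20 probes of other organic solutes, 1 of 22 amino acid and peptide probes and 1 of 8 carboxylate and fatty acid probes. Of all probes tested, 7.58% were called higher, and nothing particular to a class is read from these counts. The shifts of cell type markers between P18 and P15 given earlier stand beside these counts. Groups did not overlap in 44 members, or 35.8%, where 42.9% of all probes did not. SLC25A5 was at 17.5, 13.5 and 14.5 in P15, below the P18 values of 58.8 to 108, a difference of 2.42 ± 0.35 (limma adjusted p = 0.00109). SLC16A1 was at 0.802, 0.466 and 0.882 in P15 (2.68 ± 0.48, adjusted p = 0.00382) and SLCO4C1 at 0.0937, 0.0967 and 0.116 (3.07 ± 0.53, adjusted p = 0.00296). SLC7A9 was well above background in all 3 P15 arrays, and the difference was 3.42 ± 0.63 (adjusted p = 0.00416). The exact permutation p of each was 0.0286, and these 4 calls held when any of the 7 arrays was left out. SLC31A2 and SLC25A30 were higher in P18 by 1.32 ± 0.28 (adjusted p = 0.00847) and 1.32 ± 0.26 (adjusted p = 0.00553). No results with an array left out are given for these calls or for that of SLC12A2 below.

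SLC11A2, the transporter of ferrous iron and other divalent metals, was at 7.09, 12.9 and 7.92 in P15 and at 28.9, 28.0, 35.5 and 26.2 in P18 (1.72 ± 0.37, limma adjusted p = 0.00953, exact permutation p = 0.0286). The call was lost without P15 replicate 1 (adjusted p = 0.0509). SLC26A2, a sulfate transporter, was at 0.0798 to 0.113 in P15 and 0.177 to 0.328 in P18 (1.39 ± 0.35, adjusted p = 0.0173, up to 0.0720 without P15 replicate 1 or 2). Its call was also lost with normexp background correction. SLC12A2, the cotransporter of sodium, potassium and chloride, was at 9.94 to 14.0 in P15 and 26.4 to 32.2 in P18 (1.28 ± 0.36, adjusted p = 0.0279). The second SLC12A2 probe differed by 1.29 and was not called (adjusted p = 0.0816). SLC24A1, named after its values were seen, was also called but was well above background in no P18 array and is not given as a fold.

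The members called lower in P18 than in P15 were SLC5A3, SLC22A17, SLC9A3R2, SLC35C1 and SLC43A3. SLC5A3 was at 0.626, 0.716 and 0.700 in P15 and at 0.374, 0.211, 0.144 and 0.240 in P18, of which 3 were well above background (-1.57 ± 0.36, limma adjusted p = 0.0121, exact permutation p = 0.0571). Its call held when any of the 7 arrays was left out. SLC22A17, a receptor for lipocalin, was at 2.84, 3.18 and 3.83 in P15 and at 1.80, 1.42, 0.726 and 1.26 in P18 (-1.40 ± 0.32, adjusted p = 0.0109, and 0.0545 without P15 replicate 3). SLC9A3R2, which is a scaffold that binds sodium-proton exchangers and not a carrier, was at 39.6 to 49.8 and 15.9 to 23.6 (-1.20 ± 0.29, adjusted p = 0.0156, up to 0.0637 without P15 replicate 1 or 2). SLC35C1 differed by -1.08 ± 0.31 (adjusted p = 0.0286), and its call was lost without any of 5 of the 7 arrays (adjusted p up to 0.0993). Normexp background correction ended that call too. SLC43A3 was well above background in no P18 array, its mean P15 signal did not exceed the lowest detectable signal of the P18 arrays, and with normexp background correction its difference was -0.0038 (adjusted p = 0.990), so no fold is given.

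With each array scaled to its 75th percentile in place of its median, the median of all probes shifted by -0.30 between P18 and P15 and by -0.12 between NP18 and NP15, and quantile normalization shifted it by -0.19 between P18 and P15. The members called were then 8 higher and 11 lower between P18 and P15 with the 75th percentile and 9 higher and 8 lower with quantile normalization, where the array median gave 12 and 5. Between NP18 and NP15 they were 4 higher and 13 lower with the 75th percentile. Between P18 and NP18 they were 8 higher and 5 lower with quantile normalization. The shares of all probes called under these scalings are not given, so nothing particular to solute carriers is read from these counts. The 37 named differences that were called kept their direction under each scaling. Listed carriers that were not called are not covered by that statement.

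A list of 58 carriers known from textbooks and from work on ruminant pregnancy had 39 genes with a probe that was kept. Of these 39, 5 were called higher and none lower between P18 and NP18, 4 higher and 2 lower between NP18 and NP15, 6 higher and none lower between P18 and P15, and none between P15 and NP15. Of all probes tested, 3.65% were called higher and 2.1% lower, 2.89% and 4.26%, and 7.58% and 4.31% in the first 3 of these, and 0.798% in the last. The carriers of the list that were not called between P18 and NP18 and were well above background in 1 or more arrays of both groups ran from -1.38 (SLC4A4) to 1.26 (SLC2A5) on the log2 scale. The arginine and lysine carrier SLC7A2 differed by 0.02 ± 0.39, and the glutamate carriers SLC1A1 and SLC1A3 by -0.82 ± 0.55 and 1.21 ± 0.66, with adjusted p from 0.278 to 0.984. SLC38A2, a sodium-coupled carrier of neutral amino acids, differed by -0.37 ± 0.29 (adjusted p = 0.456). SLC34A2, a phosphate carrier of epithelia, and SLC6A8, the creatine transporter, were lower in every P18 array than in any NP18 array but missed the threshold (adjusted p = 0.143 and 0.0768). These 2 were well above background in 0 and 1 of the 4 P18 arrays, so the sizes of their differences are not given, and NP18 was at least 1.04-fold higher for SLC34A2.

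**Figure D5:**
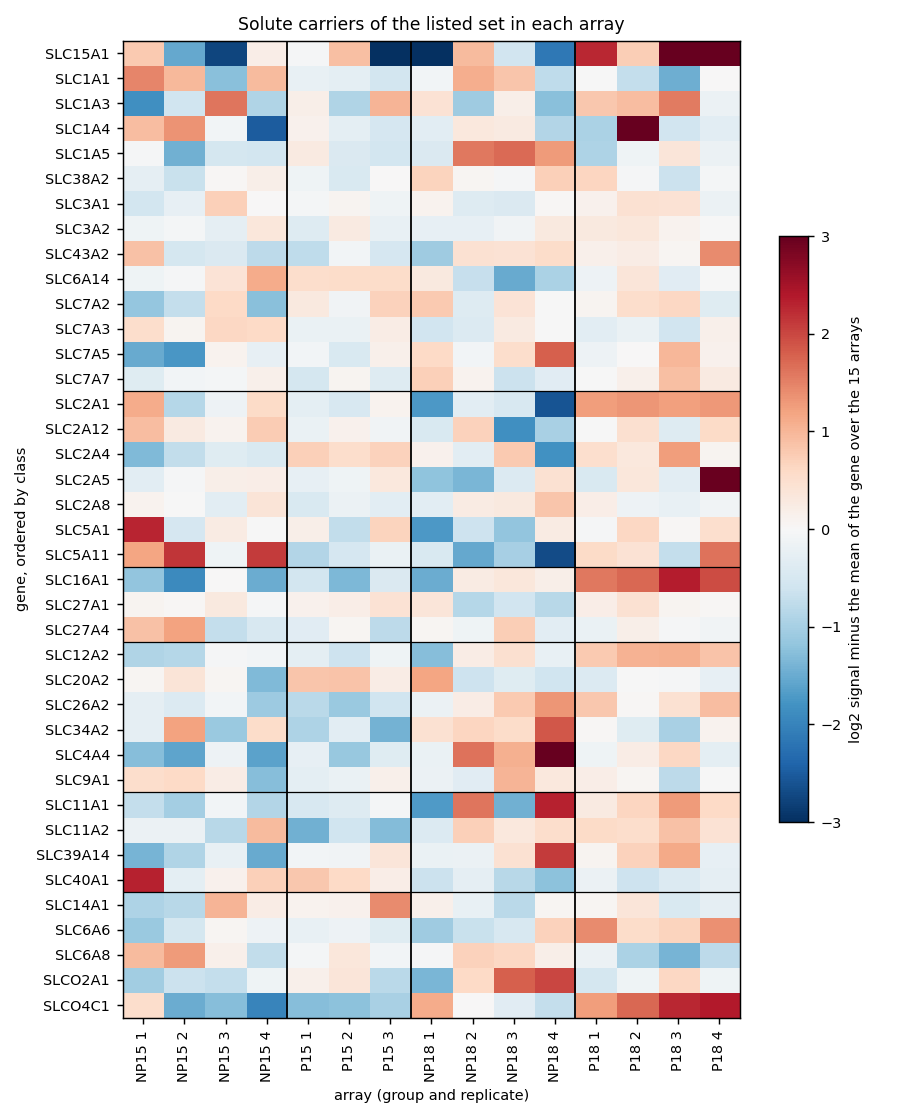
Log2 signal of the 39 listed carriers (rows, grouped by class of solute between the horizontal lines) in each of the 15 arrays (columns, groups between the vertical lines), minus the mean of the gene over the 15 arrays. The color scale ends at -3 and 3. SLC2A1 and SLC16A1 are red in all 4 P18 columns, and SLC4A4 and SLC39A14 are at their highest in NP18 replicate 4.

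Solute carriers depend on other genes of membrane transport, such as the sodium pump, which sets up the sodium gradient. Of 9 genes of the sodium pump and its regulators tested, none was called higher and 2 lower between P18 and NP18. In that comparison 3.65% of all probes were called higher and 2.1% lower, and no joint change is read from lists this small. The pump subunit ATP1B1 was at 2.08 to 5.73 in NP18 and at 1.00 to 1.21 in P18 (-1.49 ± 0.37, adjusted p = 0.0272). The regulator FXYD3 was called lower with no P18 array well above background. Of 6 aquaporins tested, which are water channels, 2 were called higher in P18. AQP4 was at 3.96 to 8.76 in NP18 and at 12.2 to 21.3 in P18 (1.49 ± 0.43, adjusted p = 0.0493), and AQP8 at 0.0531 to 0.132 and 0.135 to 0.519 (adjusted p = 0.0122), where 1 of 4 NP18 and 3 of 4 P18 arrays were well above background, so no fold is given. Neither of the 2 carbonic anhydrases and none of the 5 metallothionein and iron handling genes tested was called in any comparison. Of the 7 genes of the ABC family tested, ABCE1 and ABCF1 are not membrane carriers, and the others are carriers driven by ATP. Among these 7, 1 was called between P18 and NP18. It was ABCA1, an exporter of cholesterol and phospholipid, at 0.459 to 1.90 in NP18 and 2.69 to 3.65 in P18 (1.45 ± 0.35, adjusted p = 0.0240). ABCB1, an exporter of many lipophilic compounds, was the only gene of these lists called on day 15, where 0.798% of all probes were. It was at 0.161 to 0.295 in NP15, 0.622 to 1.14 in P15, 0.667 to 1.26 in NP18 and 0.608 to 1.26 in P18. It was lower in NP15 than in P15 and NP18, by 2.06 ± 0.33 against P15 (adjusted p = 0.0196) and by 2.23 ± 0.30 against NP18 (adjusted p = 0.000963).

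Genes with a pair of probes that were kept showed how far a value depends on the probe. Both SLC39A14 probes were placed on nearly the same stretch, and their longest common run of 22 bases is printed in capitals.
SLC39A14 first probe: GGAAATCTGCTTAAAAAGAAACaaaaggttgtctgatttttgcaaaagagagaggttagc
SLC39A14 second probe: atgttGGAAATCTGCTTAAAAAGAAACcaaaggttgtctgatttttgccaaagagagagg
Between NP18 and NP15 the first differed by 1.56 and was called, and the second by 1.23 and was not (adjusted p = 0.115). The probes for SLC4A5, a bicarbonate cotransporter, shared at most 7 bases.
SLC4A5 first probe: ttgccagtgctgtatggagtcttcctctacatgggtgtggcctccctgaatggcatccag
SLC4A5 second probe: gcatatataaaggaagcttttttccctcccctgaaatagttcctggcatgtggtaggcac
Between NP18 and NP15 the first SLC4A5 probe differed by -1.48 and was called (adjusted p = 0.00463), and the second differed by 0.23 (adjusted p = 0.684), so they disagreed in direction. The SLC5A7 probes had the same 60 bases under different names and count as 1 sequence. They were well above background in at most 2 of 4 arrays of NP15 and 1 of 4 of NP18, and neither was called in any comparison.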

How the data were processed

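Labeled RNA of 15 cows, 1 array each, was read on custom Agilent arrays in 1 color. In the deposited scanner files the authors' Agilent Feature Extraction 9.5 had given each spot a background-corrected intensity on a linear scale, with no scaling between arrays. Processed log2 values from the authors, which follow the 75th percentile of each array, served as an alternative. No genome build is given in the sources used here.

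After removal of control spots, each intensity was divided by its array median, following the study's methods, and put on the log2 scale. Spots flagged as outliers were then left out, and no probe had more than 1 spot. Probes had to be well above background in 3 or more arrays, and the 13164 that were entered a fit in limma 3.58.1 (R 4.3.3) with 1 mean per group over all 15 arrays and moderated variances. Exact two-sided permutation tests were run beside it with Python 3.11.15. Of the 123 members, 68 were named through RefSeq accessions (ARS-UCD2.0) and the others from the files. Named genes were members called with no overlap of groups and all arrays of the higher group well above background (all where 12 or fewer in a comparison, else the 6 largest rises and 6 largest falls; for the interaction, all called), and the 58 listed carriers. The brightest probe stood for a gene with more than 1. Members and lists were chosen with earlier results of these data known. The procedure was tested on simulated data, where it recovered 89% of 200 changes of 2.5 (log2) among 13130 probes between P18 and NP18, 89.5% between P15 and NP15 and 72% for the interaction, and 57%, 60.5% and 24% of changes of 1.5. The simulated noise was independent between arrays, with no effect of slide or scan day and no background floor, so these shares hold only for such data. Alternatives were other scalings and background correction (normexp, offset of 50), other filters, slide, scan day or replicate number as a block, fits of the 2 groups compared, the methods' t-test, and leaving out each array. P18 replicate 1 as the only P18 array was added after seeing the data. Slide and scan day were taken from the scanner files. The number of arrays limits the precision.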

Additional observations from a re-analysis of the deposited data

Results flagged for a closer look

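In the 22 named carriers, the highest or lowest array of a group of 4 was tested for a gap to the rest (gap over range, against Dixon's critical value), and 6 of 66 groups passed, where chance flags about 1 in 20. NP15 replicate 1 was the highest for SLC25A5 (48.5 array medians against 18.2 to 21.4, ratio 0.837), and NP15 replicate 4 for SLC9A3R2 (80.9 against 35.4 to 37.3, ratio 0.938). NP18 replicate 1 was the lowest for SLC16A1 (0.422 against 1.34 to 1.51, ratio 0.909), and NP18 replicate 2 the highest for SLC25A30 (8.49 against 7.03 to 7.06, ratio 0.981). P18 replicate 3 was the lowest for SLC5A6 (0.0739 against 0.132 to 0.137, ratio 0.931) and for SLC39A4 (0.0582 against 0.0920 to 0.0960, ratio 0.915), where no P18 array was well above background for SLC39A4.

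For 7 carriers, limma's interaction term gave a different effect of pregnancy on day 18 than on day 15. The difference, day 18 minus day 15, was 2.95 on the log2 scale for SLC2A1, 2.42 for SLC31A2, 1.88 for SLC25A5 and -2.13 for SLC5A3. It was fitted as 4.75 for SLC7A9, 3.73 for SLC5A11 and 1.51 for SLC39A4, which rest in part on arrays at background and are not folds.

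Of the 18 probes that met the naming rule but not the filter, 7 were well above background in some pregnant arrays and in no non-pregnant array of the same day. These were SLC2A3 and SLC4A10 in 2 P15 arrays each, SLC17A2 and the second SLC4A4 probe in 1 P15 array each, SLC2A2 and SLC22A9 in 1 P18 array each, and SLC10A6 in 1 P15 and 1 P18 array. This made 5 of 18 for P15 and 3 of 18 for P18, where 22.7% and 7.53% of all 2044 probes below the filter were so. In the other direction, SLC4A1 and SLCO1A2 had signal in 1 NP15 array each and in no P15 array, and SLC7A14 and the second SLC4A4 probe in 1 NP18 array each and in no P18 array (6.90% and 8.76% of all probes below the filter). The SLC2A2 and SLC22A9 signals, at 0.170 and 0.328 array medians, were both in P18 replicate 4, the array with the highest trophoblast signal of 575; the part of trophoblast RNA in them was not tested.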

How the results depend on the processing

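None of the 37 named differences that were called reversed. Of the 37 named differences, 1 kept its call under every alternative other than leaving out an array (SLC7A9, P18 versus NP18), 16 kept it when each array was left out, 26 kept it with slide as a random block, and 1 had an adjusted p under 0.05 with scan day. The causes of lost calls were not tested. The share of all probes called under each setting is not given beside the counts below, so nothing particular to solute carriers is read from them. The numbers of members called on day 15 (0) were 3 with normexp, 1 with the filter on all 15 arrays and 6 with the methods' t-test unadjusted. For P18 versus NP18 (10), they were 5 with slide and 1 with scan day as a block, 21 with the methods' t-test unadjusted, 4 after Benjamini-Hochberg, and 0 with P18 replicate 1 alone. For NP18 versus NP15 (16), they were 26 with no filter, 0 with scan day and 1 with only the 2 groups fitted. For P18 versus P15 (17), they were 35 with no filter, 0 with scan day and 0 with P18 replicate 1 alone. For the interaction (7), they were 3 with the 75th percentile (2 higher), 3 with the authors' log2 table, 18 with normexp, 3 with the filter on all 15 arrays, 2 with slide, 0 with scan day, 2 with the replicate block and 0 with P18 replicate 1 alone, where the lone array is assumed to vary like the others. At an unadjusted p under 0.05, limma with scan day as a block had 25 members for NP18 versus NP15, 18 for P18 versus P15 and 8 for the interaction, and with P18 replicate 1 alone 9 for P18 versus NP18, 12 for P18 versus P15 and 13 for the interaction.

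With each array left out in turn, the numbers ran from 0 to 3 for P15 versus NP15 (3 without NP15 replicate 3, 2 without replicate 4), 5 to 14 for P18 versus NP18 (5 without P18 replicate 4, 6 without NP18 replicate 2 or 3), 9 to 22 for NP18 versus NP15 (9 without NP18 replicate 3 or 4), 8 to 18 for P18 versus P15 (8 without P15 replicate 1, 11 without P15 replicate 2) and 1 to 8 for the interaction (1 without P15 replicate 1, and 2 to 4 without any of 10 others). Same-numbered arrays deviated from their group means with correlations from -0.259 to 0.304, and differently numbered arrays with correlations from -0.329 to 0.219. No pairing by number is read from these values. With the replicate number as a block the counts were 0, 9, 15 and 16 for the pairwise comparisons.

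Signals near background limit the weak carriers, more so on day 18, and only 3 or 4 cows per group bound each estimate.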

Other observations

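A pair of carriers of the listed set stood out in 1 P18 array each. SLC2A5, the fructose transporter, was at 0.836 array medians in P18 replicate 4 and at 0.0775, 0.136 and 0.0862 in P18 replicates 1 to 3, against 0.0417 to 0.147 in NP18. SLC1A4, a carrier of alanine, serine and cysteine, was at 0.571 in P18 replicate 2 and at 0.0281, 0.0367 and 0.0438 in the other P18 arrays, against 0.0297 to 0.0681 in NP18. The summed trophoblast signal of those 2 arrays was 575 and 130 array medians, and its part in these values was not tested.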
